A study of Mus musculus with 4 samples.

Results

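Immediate early transcription factor genes are the first genes that cells transcribe after a stimulus such as depolarisation, growth factor or stress, because the factors that switch them on are already present. FOS and JUN family proteins pair through leucine zippers to form the AP-1 factor, which binds DNA of later response genes, while EGR proteins are zinc finger factors that do the same at other elements. In retina and brain their mRNAs are read as markers of recent neuronal activity, light exposure or injury, and handling of the tissue also induces them. The 10 genes described here are Fos, Fosb, Fosl2, Jun, Junb, Jund, Egr1, Egr3, Klf4 and Atf3, found by exact gene symbol among the 43280 genes of the deposited table, and all 10 passed the filter on low values that left 18127 genes for testing.

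The study measured mRNA in dissected retina of wildtype mice of a strain given as C6/BL6J, with 2 libraries of citrate-injected controls and 2 of mice injected with streptozotocin (STZ), which destroys insulin-producing beta cells. STZ was given at 50 mg/kg on each of 5 days at 6 weeks of age, hyperglycaemia above 25 mM was looked for 10 days later, and all retinas were taken at 18 weeks. Libraries are named by group and column tag, and values of a group are given in the order 2L, 4R. The labels state neither that separate animals gave the libraries, nor the time from death to lysis or the light conditions. The p-values therefore rest on a spread between libraries that may be technical.

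Reads assigned to genes ranged from 29352330 to 39299653 per library. All 7 rod markers were present in every library and took 7.27% to 10.4% of reads. STZ 2L stood apart, with 8.87% of its reads on 17 lens genes against at most 0.0178% in any other library. All 13 cornea and conjunctiva markers read higher in both STZ libraries than in both controls, and their summed level was 2165 and 1083 normalized counts in controls, and 13824 and 12246 with STZ. The controls also differed from each other. Red blood cell markers summed to 5502 and 1966 normalized counts in controls, and 2971 and 1850 with STZ. Pigment epithelium and melanocyte markers summed to 17168 and 24781 in controls, and 23697.5 and 20909 with STZ. Mueller glia and microglia sums were close in the controls, at 165267 and 165813, and at 1056 and 1069. No marker of any list was at 0 throughout. The part of lens, surface epithelium, pigment cells and blood in the values below was not tested. Values without STZ 2L leave out all that is particular to that library, its lens RNA included. They do not leave out surface epithelium, since its markers were high in both STZ libraries. In bulk RNA, more cells of a type and more RNA per cell cannot be told apart.

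In diabetic retina no immediate early transcription factor gene passed the test. Klf4 and Fosl2 differed most, at 1.88-fold and 1.63-fold higher in STZ, Jun was the only one of the 10 that was lower, at 0.848-fold, and Fos was nearly level at 1.07-fold. Of the 10 genes, 0 passed an adjusted p of 0.05 (limma, Benjamini-Hochberg over all genes, adjusted p = 0.999 for each), and the background was 0% of tested genes higher and 0% lower. None of the 10 passed with edgeR (background 0%), with DESeq2 (0.277% of genes higher) or in the authors' deposited table (0.281% higher). DESeq2 gave the log2 fold changes of that table to within 5.8e-07 for the 10 genes, so these are not separate results. At an unadjusted p under 0.05 limma gave 2 of the 10 higher (Fosl2 and Klf4) and 0 lower, where 2.31% of all tested genes were higher and 0.447% lower. Both STZ libraries read above both controls for 6 of the 10 (Fos, Fosb, Fosl2, Junb, Jund and Klf4) and below both for 1 (Jun). Each of these patterns held for 14.3% of all tested genes. Fosb and Junb are among the 6 by small margins. STZ 4R against control 2L read 163 against 161 normalized counts for Fosb and 819 against 803 for Junb. The log2 fold change was positive for 9 of the 10, against 48.9% of tested genes, and the median was 0.33 against -0.01 over all tested genes. The 10 genes share inducers and were listed with earlier results in view, so these counts are descriptive. Without control 4R, the library that read lowest for 8 of the 10, the median was 0.12.

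**Figure D1:**
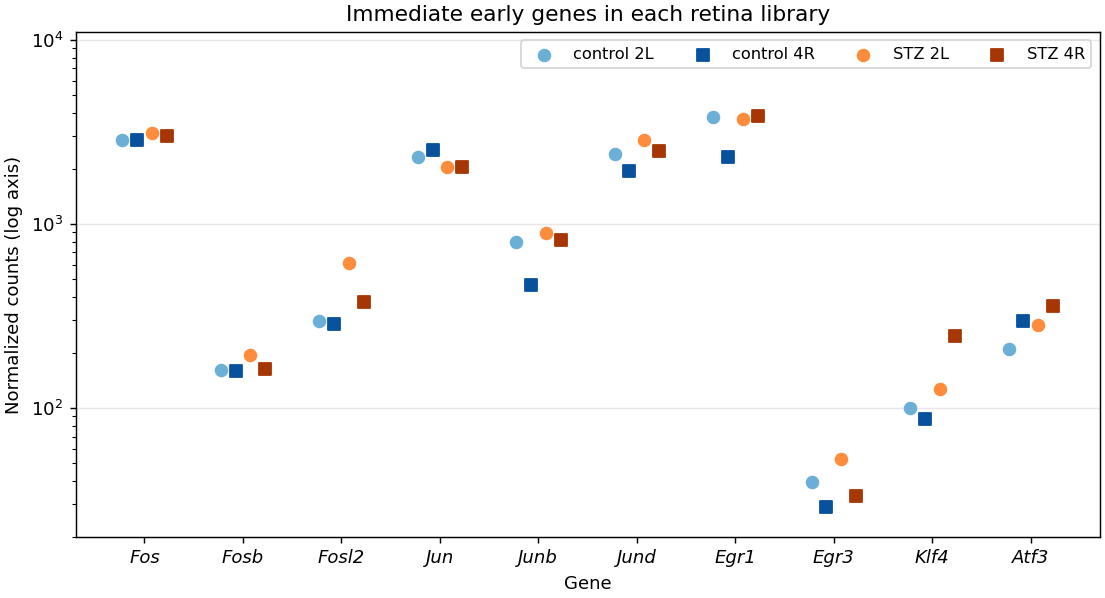
Normalized counts (log axis) of the 10 genes in the 4 libraries, 1 point per library, circles for tag 2L and squares for tag 4R. The 4 values of Fos nearly coincide, Jun is lower in both STZ libraries, and Klf4 stands out in STZ 4R at 246 and Fosl2 in STZ 2L at 609.9.

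The levels of the 10 genes spanned a wide range, compared here as normalized counts per kilobase of annotated exon and averaged over the 4 libraries. Jund led with 1453 ± 228 (SD, n = 4 libraries), followed by Fos with 1402 ± 61.7, and the ranges of these 2 genes overlapped. Egr1 at 764 ± 168 and Jun at 697 ± 71.3 overlapped in turn. Junb followed at 412 ± 106 and Atf3 at 134 ± 28.6, neither of which overlapped its neighbours in the order. Fosl2 at 60.0 ± 23.0, Klf4 at 46.3 ± 23.8 and Fosb at 44.9 ± 4.47 were not separated from one another. Egr3 was lowest, at 9.43 ± 2.52. Among tested genes with an annotated length, Fos and Jund lay above 92.0% and 92.4% of genes, and Egr3 above 7.75%.

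The FOS family encodes AP-1 subunits that cannot pair with themselves and need a JUN partner. Fos (chromosome 12, 85473890 to 85477273, mm10) read 2849 and 2848 normalized counts in controls, and 3113 and 3010.3 with STZ. The STZ libraries were just above the controls, and in each group the replicates lay close together. Its log2 fold change of 0.10 ± 0.15 (SE) had a 95% interval of -0.23 to 0.44, so a difference of more than 0.44 log2 units upward lies outside the interval. Fos also varied little with the libraries used, at 0.080 to 0.13 with each library left out in turn.

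Fosb, whose splice variant ΔFosB is known to accumulate in neurons under repeated stimulation, read 161 and 159.9 normalized counts in controls, and 195 and 163 with STZ (chromosome 7, 19302696 to 19310051, mm10). Only STZ 2L stood clear of the controls. Its log2 fold change was 0.15 ± 0.27, and 0.020 without STZ 2L. The table counts whole genes, so the splice forms are not separated.

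Fosl2 encodes FRA-2, a FOS relative without the strong activation domain of FOS. It lies on chromosome 5, 32135801 to 32157842 (mm10). Controls read 298 and 287 normalized counts, and the STZ libraries 609.9 and 375. The groups did not overlap, and STZ 2L, the library with 8.87% lens reads, was far above the other 3. Fosl2 stood at 0.71 ± 0.27 on the log2 scale, with a 95% interval of 0.082 to 1.33 and an unadjusted p of 0.0312 (limma, adjusted p = 0.999). Without STZ 2L it was 0.36. Without STZ 4R it was 1.06, in a fit where STZ 2L is the only STZ library and the controls alone give the spread. In the authors' deposited table Fosl2 stood at 0.75 on the log2 scale (adjusted p = 0.934).

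The JUN family supplies the partner that FOS proteins require, and JUN proteins can also pair with each other. Jun (chromosome 4, 95049034 to 95052222, mm10), the strongest activator of the family, read 2309.7 and 2507 normalized counts in controls, and 2041 and 2039 with STZ. Both STZ libraries were below both controls and were almost identical to each other. Jun stood at -0.24 ± 0.15 on the log2 scale, with a 95% interval of -0.59 to 0.11, and between -0.30 and -0.18 with each library left out in turn. Since both STZ libraries were below both controls, leaving out a library could not change the direction. The test was not passed.

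Junb, often an attenuator of JUN, read 803 and 464 normalized counts in controls, and 898 and 819 with STZ. Control 2L lay near the STZ libraries and control 4R well below, so the gap between the controls was 0.79 log2 units, wider than that of 89.0% of tested genes. Its fold change of 0.49 ± 0.27 on the log2 scale became 0.095 without control 4R and 0.89 without control 2L. The annotated Junb gene (chromosome 8, 84974484 to 84978718, mm10) overlaps Prdx2, a peroxiredoxin gene on the opposite strand, which read 7086 to 8892 normalized counts. This overlap is of gene spans, and whether exons of Junb and Prdx2 overlap was not checked. The strand setting of the counting is not given in the sources used here, so reads from any shared exon bases cannot be told apart.

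Jund, the family member that many resting cells already express, read 2389 and 1945 normalized counts in controls, and 2870.0 and 2490.1 with STZ (chromosome 8, 70698949 to 70700616, mm10). The groups did not overlap, but control 2L and STZ 4R were close. Jund stood at 0.31 ± 0.17, and 0.16 without control 4R. The antisense genes Junos at Jun and Gm11175 at Jund read no more than 26.2 and 43.3 normalized counts in any library.

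**Figure D2:**
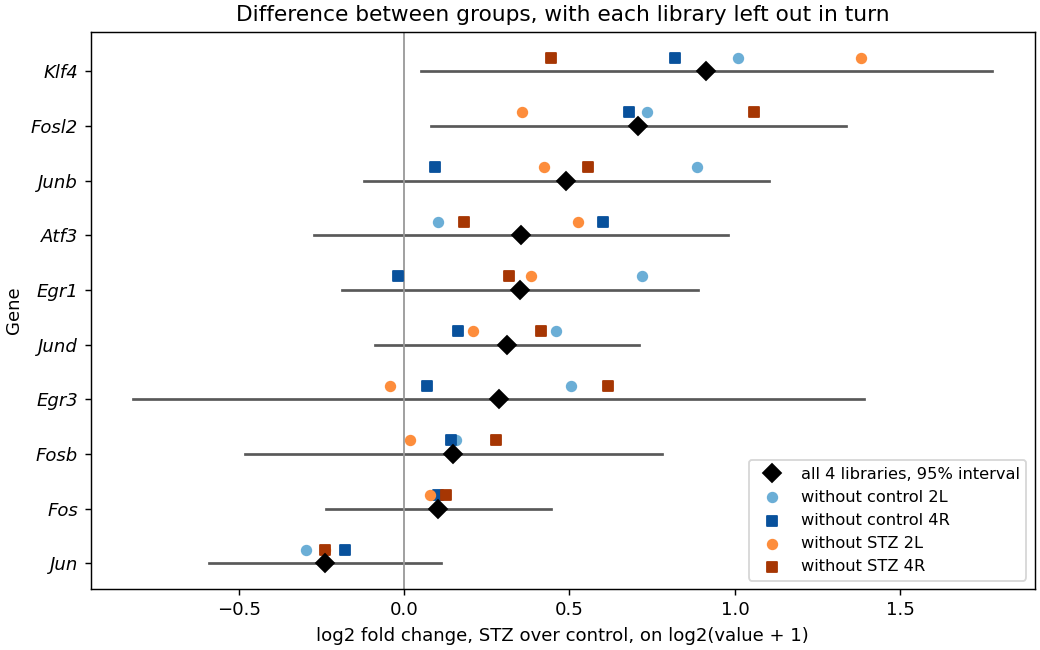
Log2 fold change of STZ over control for the 10 genes, on log2(value + 1). Diamonds and bars give the value with all 4 libraries and its 95% interval, and coloured points the value with 1 library left out. Jun stays below 0 and Fos near 0.10 throughout, whereas Egr1 and Egr3 each cross 0 for 1 omitted library.

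Within a library the ratio of 2 genes does not depend on how libraries were scaled, and 6 such ratios were looked at after the values of single genes had been seen. On the log2 scale Fos to Jun was 0.30 and 0.18 in controls, and 0.61 and 0.56 with STZ. The ratio of Jund to Jun was 0.049 and -0.37 in the controls and 0.49 and 0.29 in the STZ libraries. For Junb to Jun the ratio was -1.52 and -2.43 in the controls and -1.18 and -1.32 in STZ. Since Jun was lower and Fos, Jund and Junb were higher in both STZ libraries, these ratios had to separate the groups and only restate the single genes without the scaling. Fosl2 to Fos was -3.26 and -3.31 in controls, and -2.35 and -3.01 with STZ. Fosl2 to Jun was -2.95 and -3.13 in controls, and -1.74 and -2.44 with STZ. Fosl2 was higher in both STZ libraries as well, so its ratio to Jun also had to separate the groups. Egr1 to Fos was 0.43 and -0.31 in controls, and 0.25 and 0.36 with STZ, so for this ratio the groups overlapped. No test was made, since the ratios were picked from seen values and an exact permutation test of 2 against 2 libraries cannot go below a two-sided p of 0.333.

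Taken per kilobase, Jun made up 27.9% and 35.6% of the JUN family level in the controls and 22.4% and 24.7% with STZ. Since Jun was lower and Junb and Jund were higher in both STZ libraries, this share had to be lower and only restates the single genes. Jund was the major member throughout, at 52.8% to 60.2%, and Junb took 11.6% to 17.5%. Fos dominated its family at 91.1% to 94.0%. Fosl2 took 3.17% and 3.05% of the FOS family level in controls, and 5.75% and 3.75% with STZ. No identical stretch between the coding transcripts of 2 members of a family was longer than 20 bases, the length shared by Jun and Jund.

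**Figure D3:**
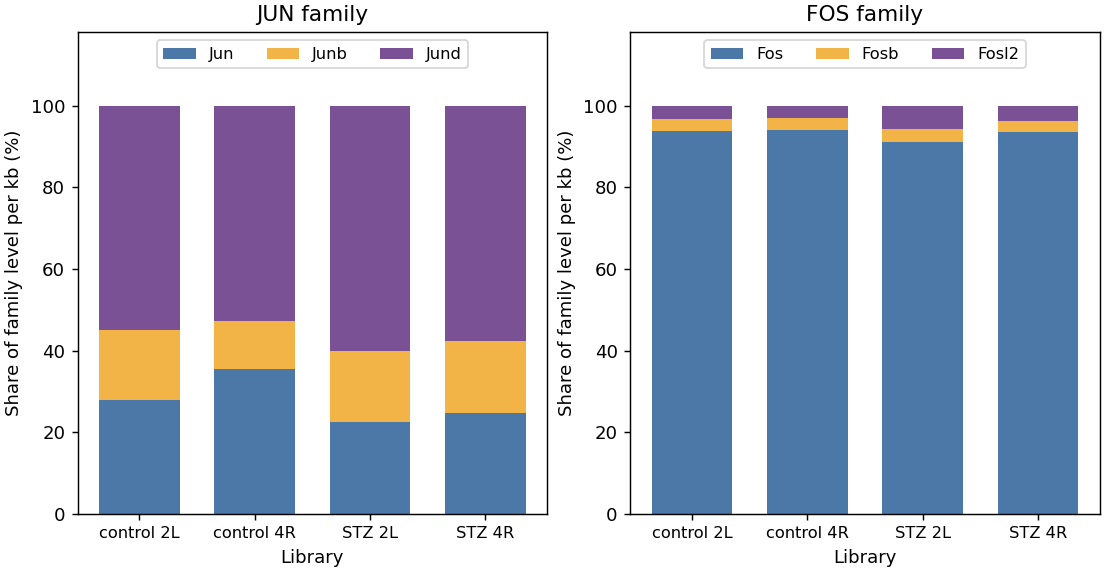
Share of each member in the summed level per kilobase of its family, in percent, for the 4 libraries. The Jun segment is 27.9% and 35.6% in the controls and 22.4% and 24.7% in STZ, and Fos fills over 91% of every FOS bar. The smaller Jun segment in STZ restates the values of the single genes.

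The EGR genes encode zinc finger factors that neurons induce with activity. Egr1, also known as Zif268, read 3832 and 2301 normalized counts in controls, and 3703 and 3874 with STZ. Control 4R alone was low, while the other 3 libraries nearly agreed, so the groups overlapped. Egr1 stood at 0.35 ± 0.23 on the log2 scale, and without control 4R it was -0.017. Junb and Egr1 were thus both low in control 4R, where the gap between the controls for Egr1, at 0.74 log2 units, exceeded that of 87.5% of tested genes.

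Egr3, needed for muscle spindle and neuronal responses in mice, was the scarcest of the 10. It lies on chromosome 14, 70077203 to 70082614 (mm10), and read 39.8 and 29.2 normalized counts in controls, and 52.8 and 33.1 with STZ. These values came from 35, 29, 50 and 40 reads. The exact Poisson 95% intervals, which cover counting error only, ran from 19.4 to 41.6 reads in control 4R and from 37.1 to 65.9 in STZ 2L. The groups overlapped, and the log2 fold change of 0.29 ± 0.48 had a 95% interval of -0.82 to 1.39, and no difference was detectable at this depth.

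Klf4 encodes a zinc finger factor that is induced early in many cells and is also expressed strongly by surface epithelia, cornea and conjunctiva among them. The gene lies on chromosome 4, 55527143 to 55532466 (mm10). It read 100.1 and 87.5 normalized counts in controls, and 128 and 246 with STZ. Both STZ libraries were above both controls, and STZ 4R was far above the rest. Its log2 fold change of 0.91 ± 0.38 had a 95% interval of 0.051 to 1.78 and an unadjusted p of 0.0404 (limma, adjusted p = 0.999). Without STZ 4R it was 0.44 and without STZ 2L 1.38. STZ 4R was also the library highest in the cornea keratin Krt12, which read 652 and 3715 normalized counts with STZ and 338 and 143 in controls. Krt12 was picked after its values were seen. Of the 13 cornea and conjunctiva markers, 3 were highest in STZ 4R and the other 10 in STZ 2L. The part of surface epithelium in the Klf4 values was not tested.

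Atf3, a stress-induced factor of the ATF/CREB family that marks injured neurons such as axotomised retinal ganglion cells, read 210.4 and 298 normalized counts in controls, and 284 and 361 with STZ (chromosome 1, 191170296 to 191218039, mm10). The groups overlapped, with control 4R above STZ 2L. Atf3 stood at 0.35 ± 0.27 on the log2 scale, and between 0.10 and 0.60 with each library left out in turn. Control 4R, low for Egr1 and Junb, was thus the higher control for Atf3 and Jun.

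How far replicates lay apart differed from gene to gene. The gap between the controls was 0.00061 log2 units for Fos and 0.014 for Fosb, and 0.74 for Egr1 and 0.79 for Junb. Between the STZ libraries it was 0.0015 for Jun and 0.065 for Egr1, and 0.70 for Fosl2 and 0.94 for Klf4. The highest library was STZ 2L for 6 genes, STZ 4R for 3 (Egr1, Klf4 and Atf3) and control 4R for Jun. The mean profile of the 10, as log2 units from each gene's mean, was -0.076 and -0.27 in controls, and 0.20 and 0.14 with STZ. Of 11776 other genes averaging at least 100 normalized counts, Efcab14, Wdsub1, Ildr2, Mast4 and Pdlim5 lay nearest to this profile, with Euclidean distances of 0.021 to 0.053 log2 units over the 4 libraries. Jund, at 0.13, was the nearest of the 10 and Klf4, at 0.91, the farthest.

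Immediate early genes are typically short, and many carry AU-rich elements in their 3' untranslated regions that shorten the life of the mRNA. The 10 genes had a median span of 5243 bases and a median of 3 exons in the coding transcript used, against 25822 bases and 9 exons for 13321 tested genes with a coding transcript. Jun, Junb and Jund each had 1 exon. The pentamer ATTTA occurred 8 times in the 3' untranslated region of Fosl2, 7 times in that of Egr3 and 4 times in those of Fos and Jun. Per kilobase of this region Fos was highest at 4.91 and Junb next at 4.12, while the long region of Fosl2 had 1.72. The median per kilobase was 2.20 over the 10 and 1.34 over tested genes, with Fosb at 0.47 and Klf4 at 1.02 below it. At least 3 copies were present in 5 of the 10, against 37.4% of tested genes.

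Fos was nearly level between the groups, Jun was lower, and Junb and Klf4 were higher in both STZ libraries, though none passed the test. Promoters of these 4 genes are shown, without a test of any link between sequence and level. Each is the 250 bases before the RefSeq start (GRCm38.p6), 5′ to 3′ on the strand of the gene, and capitals mark TGACG or its reverse complement CGTCA (a shortened cyclic AMP response element), TGACATCA or TGATGTCA, and TATAA or TTATA.
Fos (chr12:85473640-85473889, plus strand): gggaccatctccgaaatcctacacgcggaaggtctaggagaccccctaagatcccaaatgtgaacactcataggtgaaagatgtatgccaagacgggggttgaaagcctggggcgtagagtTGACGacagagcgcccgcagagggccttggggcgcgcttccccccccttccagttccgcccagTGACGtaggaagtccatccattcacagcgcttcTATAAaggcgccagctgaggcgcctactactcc
Jun (chr4:95052223-95052472, minus strand): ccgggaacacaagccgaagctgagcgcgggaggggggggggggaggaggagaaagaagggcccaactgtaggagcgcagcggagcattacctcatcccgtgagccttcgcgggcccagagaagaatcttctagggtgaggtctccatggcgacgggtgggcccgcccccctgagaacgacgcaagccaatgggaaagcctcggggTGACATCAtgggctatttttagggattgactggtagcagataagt
Junb (chr8:84978749-84978998, minus strand): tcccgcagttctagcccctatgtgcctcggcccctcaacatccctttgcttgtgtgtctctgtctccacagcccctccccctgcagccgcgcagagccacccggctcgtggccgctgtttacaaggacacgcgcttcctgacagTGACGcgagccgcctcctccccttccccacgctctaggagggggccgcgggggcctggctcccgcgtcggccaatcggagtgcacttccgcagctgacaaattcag
Klf4 (chr4:55532476-55532725, minus strand): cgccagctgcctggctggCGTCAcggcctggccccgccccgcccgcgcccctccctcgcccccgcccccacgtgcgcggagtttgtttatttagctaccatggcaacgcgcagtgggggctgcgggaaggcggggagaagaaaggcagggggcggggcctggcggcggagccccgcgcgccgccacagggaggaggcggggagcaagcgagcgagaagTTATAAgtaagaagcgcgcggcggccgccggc

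RefSeq windows were at hand for 8 of the 10 genes, without Egr1 and Egr3. The Jund window ends at 70697738, away from the gene start at 70698949 given above. The Fosl2 and Atf3 windows lie inside the gene spans given above. For these genes a match or its absence bears on the RefSeq start only. The shortened element was present in 5 of the 8 (Fos, Fosb, Junb, Klf4 and Atf3) and in 17.8% of 32851 promoter windows of the same length, both strands read. In Fos it began 129 and 66 bases before the start, the latter at the element through which cyclic AMP and calcium are known to induce the gene. TGACATCA, known as a site of JUN with ATF2, began 45 bases before the Jun start and occurred in none of the other 7 windows and in 2.93% of all. TATAA was found in Fos and Klf4 and in 22.8% of all windows. The full cyclic AMP response element TGACGTCA, the AP-1 element TGACTCA (reverse complement TGAGTCA), the EGR element GCGTGGGCG and the CArG box of serum response factor were found in 0 of the 8, and in 1.55%, 4.46%, 0.536% and 1.47% of all windows. The shortened element, TGACATCA and TATAA were added after the sequences or values were seen. The serum response element of Fos lies farther upstream than this window.

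The wider pathway gave few differences, and 0 genes of any list passed in limma. Of 40 other immediate early genes 39 were tested, with 22 higher and 17 lower, a median log2 fold change of 0.078, 9 above both controls in both STZ libraries and 5 below, patterns that each held for 14.3% of all tested genes. The median was -0.066 without control 4R and 0.18 without control 2L. Ier3, an early gene linked to cell survival, read 3121 and 2978 normalized counts in controls, and 2353 and 2201 with STZ. Both STZ libraries were below both controls, at -0.42 ± 0.15 on the log2 scale (limma, unadjusted p = 0.023, adjusted p = 0.999). Ctgf, a matrix-associated growth factor gene, stood at 0.44 ± 0.20. Nr4a1, the orphan nuclear receptor NUR77, stood at 0.35 ± 0.17, with 1834 and 1477 normalized counts in controls and 2053 and 2139 with STZ. Btg2, an antiproliferative gene and the most abundant of the list, stood at -0.070 ± 0.16, and at 0.020 without control 2L and 0.032 without STZ 4R. Egr2 reached the filter through the STZ libraries alone, at 10.6 and 10.8 normalized counts against 4.55 and 1.01. It is among the 22 higher and the 9 above both controls, a place that the filter fixed in advance. Fosl1 did not reach the filter.

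Among the bZIP partners and relatives of AP-1, 10 of 14 were tested, with a median of 0.16, 3 above and 1 below both controls (background 14.3% each way). The median was 0.028 without control 4R and 0.044 without STZ 2L. Mafk, a small MAF protein, stood at 0.62 ± 0.29, which became 0.25 without STZ 2L but 1.00 without STZ 4R. Atf2, a JUN partner, stood at 0.17 ± 0.16. Maf, which lens fibre cells express, read 1984 normalized counts in STZ 2L, the lens-rich library, and 428 to 554 in the other 3. Its log2 fold change of 0.82 was -0.28 without STZ 2L. Nrl, the bZIP factor that specifies rods and the most abundant of the list, stood at -0.11 ± 0.20, with both STZ libraries below both controls.

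Upstream of the immediate early genes, 14 transcription factors and coactivators that act at their promoters had a median of 0.036, with 1 above and 3 below both controls in both STZ libraries (background 14.3% each way). Leaving out control 4R turned the median to -0.14 and leaving out STZ 4R to -0.051, while leaving out control 2L gave 0.18. Elk1, a ternary complex factor that works with SRF, stood at -0.23 ± 0.17, Crem at -0.26 ± 0.23 and Creb1 at 0.13 ± 0.17, the last at -0.0041 without STZ 4R. Ep300, a histone acetyltransferase and the most abundant of these, stood at 0.086 ± 0.20, and at -0.11 without control 4R and -0.13 without STZ 4R. The 20 kinases of the ERK, JNK, p38, RSK and MSK modules had a median of -0.0062, and 0.041 without STZ 2L, with 3 above and 3 below (background 14.3% each way). Map2k3, a p38 activator, stood at 0.62 ± 0.25 (limma, unadjusted p = 0.0354, adjusted p = 0.999), with 309 and 435 normalized counts in controls and 625 and 506 with STZ. Mapk11 stood at -0.45 ± 0.25, Rps6ka3 at 0.30 ± 0.18 and Rps6ka2 at -0.014 ± 0.16. Rps6ka2 was 0.033 without control 4R and 0.091 without STZ 2L.

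Feedback inhibitors, phosphatases, Sprouty and Spred proteins, mRNA decay factors and NAB corepressors that end the response, had a median of -0.066 over 15 of 16 genes tested, and 0.022 without control 2L. In both STZ libraries 0 read above both controls and 4 below (background 14.3% each way), Spry2 among them at -0.23 ± 0.16 and Dusp10 at -0.25 ± 0.20. Spry1 stood at 0.38 ± 0.30 and was -0.081 without STZ 2L, and Zfp36l2 stood at 0.17 ± 0.20 and was -0.075 without control 4R. Heat shock genes, also quickly induced, had a median of 0.14 over 13 genes. Hspb1 and Cryab, both abundant in lens, stood at 3.10 ± 1.42 and 3.15 ± 1.60, and at 0.27 and -0.074 without STZ 2L. Bag3 stood at 0.58 ± 0.34 and at 0.13 without STZ 2L.

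**Figure D4:**
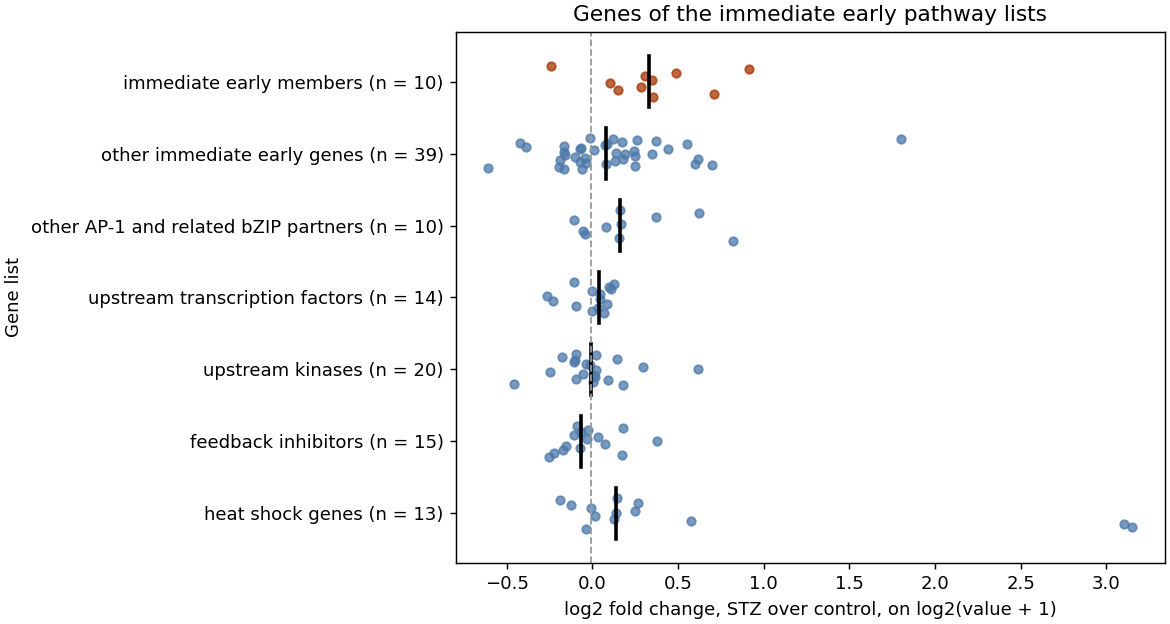
Log2 fold change of STZ over control, on log2(value + 1), for each tested gene of the immediate early lists, 1 point per gene. Vertical black lines are list medians and the dashed line is the median of all tested genes, -0.01. The 10 transcription factor genes have a median of 0.33, the other lists -0.066 to 0.16, and the 2 heat shock points beyond 3 are Hspb1 and Cryab.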

How the data were processed

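Per the labels' protocols, polyadenylated RNA of retina was made into Ion Torrent libraries and analysed in Torrent Suite 5.4.0, with STAR and Bowtie2 on mm10 and counting by HTSeq and Picard. The values deposited by the authors are normalized counts, a signal in which each library's reads per gene were scaled by 1 factor. Their own comparison was deposited as log2 fold change, its error, a score, and raw and adjusted p-value columns, made with a tool not given in the sources used here. Columns tagged 2L matched a label. Columns tagged 4R named only their group, since the labels give 4L, and the column names carry another time tag than the protocols. All values (100%) were whole multiples of 1 step per column to within 0.01 reads, from which reads were recovered. No column of another series was present.

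The filter asked for 10 or more normalized counts in 2 or more libraries. The test was limma 3.58.1 (R 4.3.3) on log2(value + 1), mean-dependent prior (6.17 degrees of freedom), treatment as the only term, two-sided, Benjamini-Hochberg adjustment at 0.05. This scale understates changes of low genes. Intervals of fold changes are 95% from the same fit. edgeR 4.0.16 and DESeq2 1.42.0 on recovered reads were alternatives. The fits were tested on simulated data. Exon lengths and 3' untranslated regions came from GENCODE M21 (GRCm38), promoters from RefSeq. Named were all 10 genes, the 3 smallest p and the most abundant gene of each list, and the 5 genes of nearest profile. Egr2, Fosl1 and Krt12 were named after their values were seen. Genes and lists were chosen with earlier results of these data known.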

Additional observations from a re-analysis of the deposited data

How the results depend on the processing

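The alternatives were a replicate block by column tag, each library left out, TMM and quantile scaling, other filters and pseudocounts, edgeR and DESeq2 on recovered reads, and lens and surface epithelium genes left out. Of 139 values of single genes, 136 kept their direction and their side of the threshold. Much of this was fixed in advance. The replicate block and the other filters give the same fold change by construction and could alter only the call. Leaving out lens and surface epithelium genes removed those marker genes alone. It could not take lens or surface epithelium RNA out of the values of other genes. Klf4 at 0.91 and Fosl2 at 0.71 in this setting therefore do not bear on such RNA. For genes whose groups did not overlap, leaving out a library could not reverse the direction. Egr1 reversed to -0.017 without control 4R (up to 0.72 with another library left out) and Egr3 to -0.042 without STZ 2L (up to 0.62), and Fosl2 passed without STZ 4R; the cause was not tested.

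Over all genes, limma passed 0 higher and 0 lower (419 and 81 at an unadjusted p under 0.05), edgeR 0 and 0 (522 and 71), and DESeq2 52 and 0 (554 and 59). With no filter limma passed 13 higher and 0 lower. With a library left out it passed 8 to 551 higher and 0 to 40 lower, in fits that take the spread of a group's single library from the remaining pair. The largest count was without STZ 4R, which leaves the lens-rich STZ 2L alone. Of the 10 genes, 0 to 1 passed, and their median log2 fold change was 0.12 to 0.48. With a library left out, 7 or 8 of the 10 had the STZ libraries above the controls, where 30.0% to 33.2% of tested genes did. These counts could not fall below the 6 seen with all libraries. Quantile scaling gave 5 of the 10 (background 11.8%) and TMM scaling 6 (background 14.1%).

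The labels do not say that tags pair samples, and deviations of same-tagged libraries correlated at 0.099. The replicate block passed 0 genes in either direction (476 and 155 unadjusted) and changed no call among the 10.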
